A study of Mus musculus with 3 samples.

Results

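Gzmk or Ly6c2 CD8 T cells were taken from single-cell RNA sequencing of CD45+ cells of mouse KP1 tumors as CD8 T cells that carried a UMI (a counted RNA molecule) of Gzmk or Ly6c2 and none of Lag3 or Pdcd1. The rule found 4207 such cells among 71909 kept cells, 1738 with mono-IL-10, 1213 with IL-10/2-Trikine and 1256 with IL-10/2-Trikine + anti-PD-1, called the combination below. Cells were kept from 200 detected genes upward and up to a mitochondrial share of 20%. A member also had at least 2 UMIs of Cd3d, Cd3e, Cd3g, Trac, Trbc1 and Trbc2, fewer than 5 UMIs of Lyz2, C1qa, C1qb, S100a8 and S100a9, at least 1 UMI of Cd8a or Cd8b1, and none of Cd4 or Foxp3. Cells with 3 or more UMIs of Mki67 and Top2a were left out as cycling, and cells with 2 or more UMIs of Klra1, Klra5, Klra6, Klra7 and Klrb1c as NK-type. Members were thus selected on the measured UMIs of these 26 genes, whose levels are given as a description.

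KP1 is a mouse small-cell lung cancer cell line with mutations in Rb and p53, and 500000 cells were placed under the skin of wild-type female F1 mice of the strain B6129SF1/J. Each library came from tumors collected on day 19, after 3 µg of cytokine given into the peritoneum every other day from day 7, and live CD45+ cells were sorted although the labels name the cells T cells. Mono-IL-10 is a monomeric form of interleukin-10 and the control of the design, and IL-10/2-Trikine is an IL-10 protein extended by a binder that also engages the IL-2 receptor beta chain. The combination added 200 µg of an antibody against PD-1, clone RMP1-14, every 4 days between days 7 and 19. The protocol text, the same for all samples, can also be read as giving this antibody to every group, and the groups here follow the titles and treatment labels, which name it for the combination alone. No library of untreated tumors was analysed here, and how many mice a library pools is not given in the sources used here. Each group was 1 library, so no difference between treatments could be tested, and the treatment and the library cannot be told apart.

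Gzmk encodes granzyme K, a serine protease of cytotoxic granules found in CD8 T cells early in effector differentiation, and Ly6c2 encodes Ly6C, a surface protein of memory and recently stimulated CD8 T cells as well as of monocytes. Effector-memory CD8 T cells keep granzymes and the chemokine CCL5 ready and lack the lymph node homing receptor CCR7, which naive and central memory T cells hold together with the transcription factors TCF-1 (Tcf7) and LEF1. PD-1 (Pdcd1) and LAG-3 mark T cells under repeated antigen contact, and IL-2 and IL-10 act on CD8 T cells through STAT5 and STAT3.

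The members were CD8 T cells by the rule, and their other markers were in part those of effector-memory cells. Cd8b1, a chain of the CD8 co-receptor that the rule used, was found in 93.1%, 94.6% and 91.6% of members in the mono-IL-10, IL-10/2-Trikine and combination libraries, the order used for all values below. Ccl5, which the rule did not use, stood at 15415, 18251 and 20732 CPM, counts per 1000000 UMIs summed over the members of a library. After each cell was thinned to 1000 UMIs, Ccl5 was found in 87.1%, 95.3% and 96.7% of members, against 5.6%, 5.0% and 19.7% of B cells of the same libraries, a cell type that does not make it (median depth before thinning 3664, 2876 and 2871 UMIs in members and 3275.5, 3624 and 3819 in B cells). A UMI of Ccr7 or Lef1 was nevertheless present in 62.9% (95% interval 60.6 to 65.2), 58.5% (55.7 to 61.3) and 49.2% (46.4 to 52.0) of members. Lef1 at 1000 UMIs per cell was found in 30.1%, 28.0% and 23.2% of members against 0.973%, 1.25% and 0% of B cells (0 of 71 B cells in the combination). The name effector-memory thus held for a part of the cells, and they are called Gzmk or Ly6c2 CD8 T cells here. All intervals in the text are at the 95% level and cover counting error, not the variation between mice or libraries.

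The libraries held 158570946, 197176873 and 175794959 UMIs, and the members' summed UMIs were 6805313, 3902345 and 4016230. Median UMIs per member were 3664, 2876 and 2871, and the mitochondrial share was between 1.46% and 1.54%, so members of the mono-IL-10 library were the deepest. Free RNA was read from barcodes with fewer than 200 genes, and its level is given for part of the genes below. The 3 pairs of libraries shared between 137 and 180 kept barcodes, and 1 barcode was a member in 2 libraries. Myeloid UMIs were absent from 80.0%, 90.9% and 83.8% of members. Summed markers of macrophages (9 genes) reached 308, 352 and 351 CPM in members against 4197, 2068 and 3252 CPM in free RNA. Those of NK cells (7 genes, with Eomes, also a gene of memory CD8 T cells) reached 210.4, 297 and 242 CPM against 586, 701 and 913 CPM. Monocyte markers (7 genes) reached 877, 1202 and 1089 CPM against 805, 1103 and 858 CPM, and KP1 tumor cell markers (7 genes) 10.1, 31.5 and 35.1 CPM against 137, 101 and 176 CPM. Of the 5 measured tumor markers, 4 were at least 2-fold higher with IL-10/2-Trikine than with mono-IL-10 (median log2 ratio 1.95). Gamma-delta T cell markers (8 genes) reached 41.3, 119 and 104 CPM against 47.0, 179 and 140.2 CPM. B cell markers (6 genes) reached 272, 98.9 and 2125 CPM against 1477, 4376 and 350.3 CPM, and in the combination 98.9% of Igkc UMIs lay in 3 cells. Regulatory T cell markers (5 genes) reached 502, 622 and 786 CPM against 685, 1661 and 1005 CPM, and their defining gene Foxp3 was at 0 by the rule. Doublets were not called.

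The members made up a smaller share of resting CD8 T cells in the combination library. They were 46.3% (44.7 to 47.9) of 3753 resting CD8 T cells with mono-IL-10, 43.7% (41.8 to 45.6) of 2776 with IL-10/2-Trikine and 34.5% (32.9 to 36.1) of 3642 with the combination. Resting CD8 T cells are those that pass the rule up to the step on cycling genes. The ratio was 0.944 (0.894 to 0.996) for IL-10/2-Trikine over mono-IL-10 and 0.789 (0.742 to 0.839) for the combination over IL-10/2-Trikine. Both ratios use the IL-10/2-Trikine library. A deeper cell is more likely to show a UMI of Gzmk and also more likely to be removed by a UMI of Lag3 or Pdcd1, so cells were thinned to equal depth. At 2000 UMIs per cell the shares were 52.1%, 52.0% and 39.9%, and at 1000 UMIs they were 47.5%, 53.6% and 43.7%. The ratio for IL-10/2-Trikine over mono-IL-10 thereby moved to 0.999 and to 1.13 (1.07 to 1.18), and that for the combination over IL-10/2-Trikine to 0.767 and 0.816 (0.777 to 0.858). The rule was applied anew to the thinned counts, so a cell that lost its UMIs of Lag3, Pdcd1, Mki67 or Top2a could enter. Members numbered 1668, 1710 and 1508 at 1000 UMIs, so the thinned shares do not describe the same cells. The part of such cells was not tested. The direction of the first ratio changed with thinning, and the second was below 1 at all 3 depths.

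The denominator also set the order. Of all kept cells the members were 7.82%, 5.34% and 4.66%, of T cells 19.1%, 8.61% and 8.65%, and of CD8 T cells with cycling cells included 38.3%, 27.6% and 28.5%. These shares moved with depth as well. At 1000 UMIs per cell they were 8.80%, 8.11% and 6.47% of kept cells, 18.6%, 13.0% and 11.7% of T cells, and 45.3%, 46.7% and 41.5% of CD8 T cells with cycling cells included. The last ratio thereby turned from 0.72 to 1.03 (0.98 to 1.08) for IL-10/2-Trikine over mono-IL-10 and from 1.03 to 0.888 (0.843 to 0.935) for the combination over IL-10/2-Trikine. Of T cells, the ratio for IL-10/2-Trikine over mono-IL-10 moved from 0.45 to 0.699, and that for the combination over IL-10/2-Trikine from 1.004 to 0.901. Cycling CD8 T cells numbered 780, 1620 and 769, so the IL-10/2-Trikine library held the largest number of them. The last steps of the rule acted unequally. The absence of Lag3 kept 66.7%, 70.0% and 63.6% of resting CD8 T cells, the absence of Pdcd1 then kept 85.1%, 68.6% and 62.3%, and a UMI of Gzmk or Ly6c2 kept 81.6%, 91.0% and 87.1% of what remained. Cells with a Pdcd1 or Lag3 UMI made up 43.3%, 52.0% and 60.4% of resting CD8 T cells. With a Gzmk or Ly6c2 UMI required but Lag3 and Pdcd1 allowed, the share of resting CD8 T cells was 86.6%, 93.0% and 90.1%. Pdcd1 encodes the target of the antibody in the combination.

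**Figure D1:**
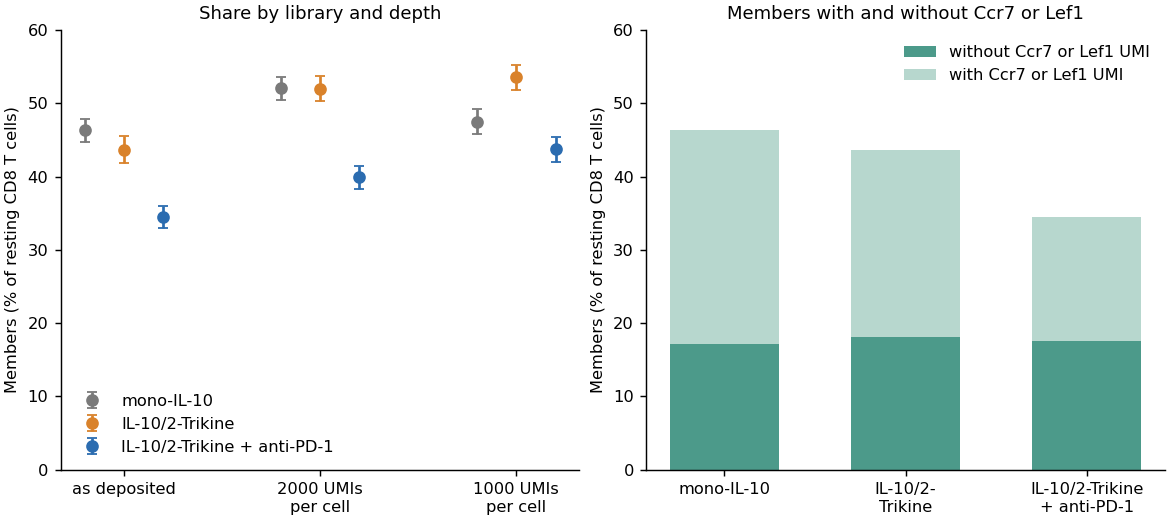
Members as percent of resting CD8 T cells in each library (points, left, with 95% counting intervals) as deposited and at 2 equal depths, and the same share as deposited split by a UMI of Ccr7 or Lef1 (stacked bars, right). The combination was lowest at all 3 depths (34.5%, 39.9% and 43.7%), and the part without Ccr7 or Lef1 lay between 17.2% and 18.1% in all 3 libraries.

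As deposited, the share without a detected UMI of Ccr7 or Lef1 was close to level across the libraries. Members without either UMI were 17.2%, 18.1% and 17.5% of resting CD8 T cells (645, 503 and 638 cells), and members with such a UMI were 29.1%, 25.6% and 17.0% (1093, 710 and 618 cells). As deposited, the lower share in the combination thus lay in members with a detected UMI of Ccr7 or Lef1. The split was not repeated at equal depth, and a cell without such a UMI can still hold the transcript. Median depth was lower in the last 2 libraries, which makes such a UMI less likely to be seen. A lower share was seen in the combination in resting CD8 T cells with Pdcd1 or Lag3 as well, at 45.7%, 56.6% and 35.8%. The parts differed in the way the split would have them: Tcf7 stood at 358, 218 and 219 CPM in members with a Ccr7 or Lef1 UMI and at 164.5, 117 and 136 CPM in those without. Gzma, a granzyme gene, stood at 2358, 8089.7 and 6312 CPM in members with such a UMI and at 3248, 9587 and 7677 CPM in those without, so its order over the libraries was the same in both parts.

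With IL-10/2-Trikine, members had more RNA of the granzyme genes Gzma and Gzmb, most NK-type receptors, Ifitm proteins and S100 proteins than with mono-IL-10. They had less of memory and interferon-response genes. Genes were ranked where the pair of libraries held at least 20 UMIs and the higher library at least 50 CPM, with the genes of the rule left out. Of 3596 genes ranked, 18 (0.501%) were at least 2-fold higher with IL-10/2-Trikine and 23 (0.64%) at least 2-fold lower. Gene lists were read over all 10745 genes with 20 UMIs and no CPM limit, of which 2.07% were at least 2-fold higher, 5.15% at least 2-fold lower and 38.5% above a log2 ratio of 0, with a median of −0.11.

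Of the 14 granule and death-ligand genes measured, 11 were above 0 and 2 at least 2-fold higher, with a median of 0.17. Gzma, which encodes granzyme A, stood at 2660.0, 8686 and 6964 CPM, a log2 ratio of 1.71 (1.68 to 1.73) for IL-10/2-Trikine over mono-IL-10. It was found in 43.2%, 73.5% and 75.1% of members at 1000 UMIs per cell, against 3.16%, 5.00% and 14.1% of B cells. The share of members with Gzma was thus far above that of B cells in each library, and mono-IL-10 was the low library. Free RNA held 1179.5, 4960.2 and 5271 CPM of Gzma and was also lowest with mono-IL-10. The part of free RNA in the difference was not tested. Gzmb, the granzyme gene that leads target cell killing, stood at 2742, 4309 and 4628 CPM (log2 ratio 0.65), Prf1 (perforin) at 225, 281 and 259 CPM, and Fasl, the death ligand, at 265, 309 and 313 CPM. The second gene past 2-fold, Gzmc, rested on few cells, with 63.6% of its IL-10/2-Trikine UMIs in 3 cells.

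Of 10 NK-type receptor genes outside the rule, 8 were above 0 and 3 at least 2-fold higher, with a median of 0.70. Klrk1, which encodes the activating receptor NKG2D, stood at 273, 581 and 553 CPM (log2 ratio 1.09, 1.0 to 1.18). Klrd1, which encodes CD94, the partner chain of NKG2 receptors, stood at 464, 792 and 627 CPM (0.77), and Klre1 at 62.0, 165 and 114 CPM (1.41). In all 3 genes the mono-IL-10 library was the lowest. Free RNA held 49.2, 184 and 188 CPM of Klre1, also lowest with mono-IL-10 and above members in both Trikine libraries. Its part was not tested. Cd226, which encodes the adhesion receptor DNAM-1, went the other way, at 207, 94.6 and 134 CPM (−1.13). Markers of NK cells moved with these receptors: 6 of 7, among them Klre1 and Tyrobp of the receptor list, were at least 2-fold higher. Eomes was at least 2-fold lower, and the median of the 7 was 1.18. The summed level of these markers, 210.4, 297 and 242 CPM, includes Eomes, so the other 6 together rose by more with IL-10/2-Trikine. Ncr1, the defining gene of NK cells among them, stood at 1.18, 4.61 and 3.73 CPM. Gamma-delta T cell markers had a summed level of 41.3, 119 and 104 CPM. The part of such cells in the receptor differences was not tested.

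The Ifitm family, membrane proteins that restrict virus entry, held the largest median of the 28 lists of T cell biology (1.72), with 3 of 4 genes at least 2-fold higher. Ifitm1 stood at 156, 742 and 642 CPM (log2 ratio 2.25, 2.15 to 2.35), Ifitm2 at 55.1, 223 and 151 CPM (2.02) and Ifitm3 at 66.0, 176 and 131 CPM (1.41). In members with a Ly6c2 UMI and none of Gzmk the ratio for Ifitm3 was 0.26, below 2-fold. Ifitm1 was found in 5.84%, 17.6% and 18.0% of members at equal depth, against 0.73%, 2.50% and 2.82% of B cells. Free RNA held 57.7, 377 and 286 CPM of Ifitm1, 293, 677 and 448 CPM of Ifitm2 and 210.2, 309.9 and 283 CPM of Ifitm3, so Ifitm2 and Ifitm3 were higher outside cells than in members in each library. The part of free RNA was not tested.

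Of 12 S100, annexin and cytoskeletal activation genes, 11 were above 0 and 3 at least 2-fold higher (median 0.65). S100a6, a calcium-binding protein gene of activated T cells, stood at 991, 2309 and 1438 CPM (log2 ratio 1.22) and Lgals3, which encodes galectin-3, at 212, 593 and 375 CPM (1.48). Free RNA held 436, 1126 and 978 CPM of S100a6 and 144, 326 and 318 CPM of Lgals3, below members and also lowest with mono-IL-10. Its part was not tested. S100a4 (439, 835 and 579 CPM), Lgals1 (502, 924 and 633 CPM) and Vim (823, 1287 and 997 CPM) had the same order. Glycolysis genes (11 of 16 above 0, median 0.20) and oxidative phosphorylation genes (12 of 14, median 0.19) lay above all genes by less than the 2-fold limit.

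Memory genes were lower. Of 20 naive and memory genes, 3 were above 0 and 5 at least 2-fold lower, with a median of −0.45. Tcf7 stood at 292, 178 and 180 CPM (log2 ratio −0.72, −0.85 to −0.59) and Lef1 at 413, 335 and 284 CPM (−0.30, −0.39 to −0.20). Tcf7 was found in 21.5%, 17.7% and 14.4% of members at equal depth. Dapl1, a gene of early memory-type CD8 T cells, stood at 69.1, 4.36 and 5.23 CPM (−3.99, −4.78 to −3.29) and was present in 178, 10 and 9 cells. Its difference lay in members with a Ccr7 or Lef1 UMI (103.9, 6.39 and 8.10 CPM). Members without one held 1.30, 1.29 and 2.09 CPM (3, 2 and 4 UMIs). Ccr7 did not follow, at 66.1, 70.2 and 40.6 CPM (0.09, −0.14 to 0.31), and S1pr1, the receptor for leaving tissue, was higher at 231, 321 and 257 CPM (0.47). Summed markers of CD4 helper T cells (5 genes), at 42.0, 9.74 and 18.7 CPM, were also highest with mono-IL-10, and 0 of 3 measured were above 0 with IL-10/2-Trikine (median −2.06), and B cell markers stood at 272 and 98.9 CPM with mono-IL-10 and IL-10/2-Trikine. The part of such cells was not tested.

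**Figure D2:**
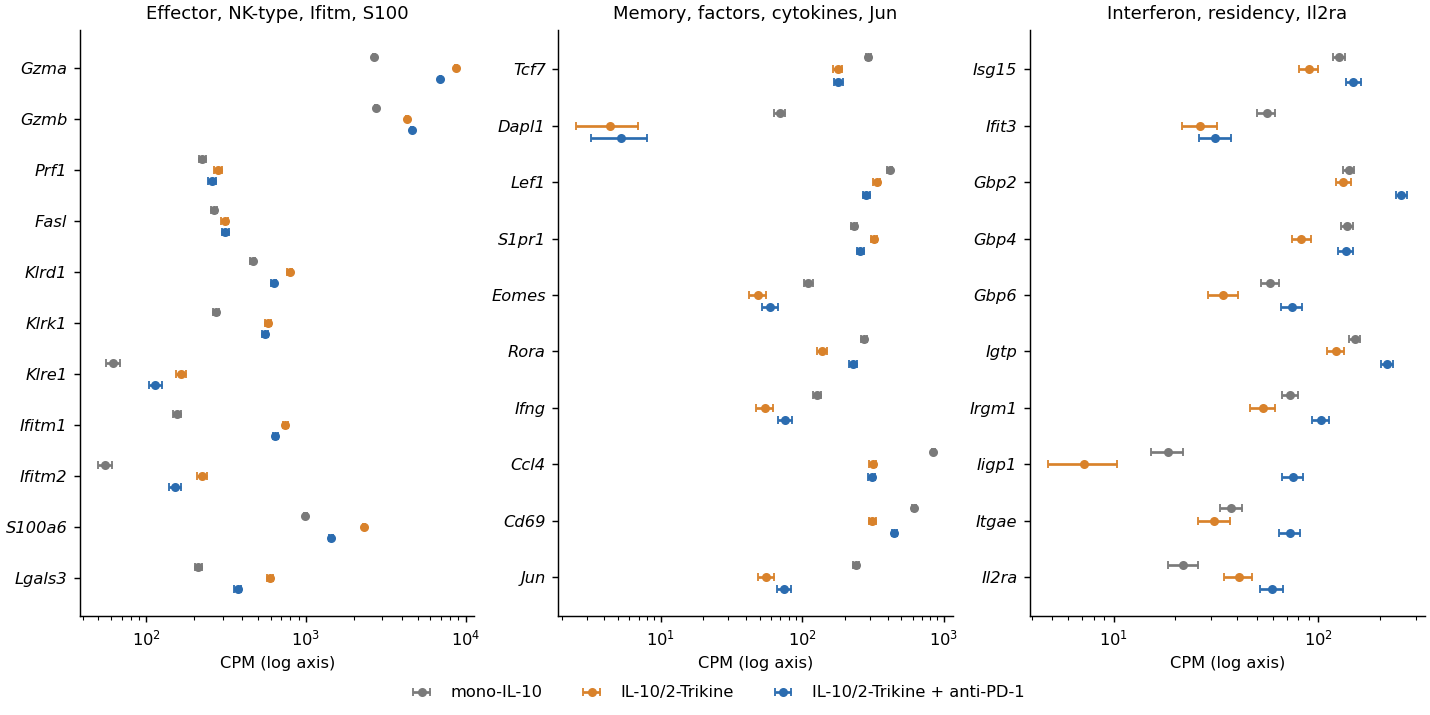
Level of named genes over the summed members of each library, in CPM on a log axis, with 95% counting intervals. Gzma (2660.0, 8686 and 6964 CPM), Klrk1 and Ifitm1 were lowest with mono-IL-10, Tcf7 and Jun highest with mono-IL-10, and the GBP and IRG genes highest with the combination or equal to mono-IL-10.

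Jun and Fos, immediate-early genes that cells switch on within minutes of a stimulus, and the heat shock genes Hspa1a and Hspa1b were highest with mono-IL-10. Jun stood at 240.1, 55.6 and 74.2 CPM (log2 ratio −2.11, −2.32 to −1.91), Fos at 231, 85.1 and 109 CPM (−1.44), Hspa1b at 203, 34.9 and 60.01 CPM (−2.54) and Hspa1a at 102, 22.8 and 48.3 CPM (−2.16). Over 18 alternative settings the weakest ratio was −1.63 for Jun, −0.67 for Fos, −0.90 for Hspa1b and −0.44 for Hspa1a. Jun was found in 17.9%, 3.52% and 3.99% of members at equal depth, against 28.5%, 7.50% and 16.9% of B cells, which make it too. Free RNA held 315, 123 and 200 CPM of Jun and 659.7, 362 and 451 CPM of Fos. Within their lists, 3 of 14 immediate-early genes (median −0.30) and 3 of 10 heat shock genes (median −0.12) were above 0, the second median being near that of all genes. For the combination over mono-IL-10, 9 of 14 (median 0.10) and 6 of 10 (median 0.09) were above 0, where 40.5% of all 10874 genes were (median −0.07).

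Ifng and Ccl4 were lower with IL-10/2-Trikine. Ifng, which encodes interferon-gamma, stood at 126, 54.3 and 75.4 CPM (log2 ratio −1.22, −1.44 to −1.0) and was found in 9.72%, 3.86% and 4.65% of members at equal depth. Ccl4, a chemokine gene, stood at 841, 314 and 308 CPM (−1.42), with 1117, 571 and 869 CPM in free RNA. Of 7 chemokine ligands, 2 were above 0 and 2 at least 2-fold lower (median −0.34), and of 9 cytokine ligands 3 were above 0, 1 at least 2-fold higher and 3 at least 2-fold lower (median −0.25). Of 12 effector transcription factors, 3 were above 0 and 2 at least 2-fold lower (median −0.52). Eomes, a T-box factor of memory CD8 T cells, stood at 111, 48.4 and 59.3 CPM (−1.19) and Rora at 273, 138 and 229 CPM (−0.99). Cd69, a gene of recent activation and tissue retention, stood at 611, 312 and 447 CPM (−0.97).

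Interferon-response genes were lower as a group, mostly by less than 2-fold. Of 35 type I interferon response genes, 1 was above 0 and 7 were at least 2-fold lower (median −0.50), and of 15 GBP and IRG GTPases, proteins induced mainly by interferon-gamma, 1 was above 0 and 2 were at least 2-fold lower (median −0.49). Isg15, a ubiquitin-like protein gene, stood at 127, 89.7 and 149 CPM (log2 ratio −0.50), below free RNA in each library (146, 99.0 and 198 CPM), and Gbp4 at 139, 82.8 and 137 CPM (−0.74). The IL-10/2-Trikine library was the lowest of the 3 for both genes.

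Some of the genes with large ratios stood on few cells or below their level in free RNA. Ccl24 had 98.9% of its IL-10/2-Trikine UMIs in 3 cells of 6. Ebf1, a B cell factor, stood at 58.0, 1.03 and 10.2 CPM in 76, 1 and 8 cells, beside 353, 5.18 and 19.5 CPM in free RNA. Lrmda stood at 69.8, 22.04 and 44.6 CPM beside 697, 175 and 473 CPM in free RNA. The metallothionein gene Mt1 (log2 ratio 1.51) stood at 20.6, 58.7 and 41.3 CPM beside 97.7, 147 and 104 CPM in free RNA. 1500009L16Rik (1.86) stood at 14.3, 51.8 and 27.1 CPM beside 13.4, 99.6 and 43.1 CPM, below free RNA in both Trikine libraries. The other gene among the 10 highest was AA467197 (1.39), and among the 10 lowest Abtb3 (−1.65) and Tespa1 (−1.43), which acts in T cell receptor signaling.

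Several of the differences named above were also present in CD8 T cells outside the rule. In resting CD8 T cells with Pdcd1 or Lag3 the same log2 ratio was 1.39 for Gzma, 2.09 for Ifitm1, 0.77 for Klrk1, 1.46 for Lgals3 and −1.31 for Jun. In cycling CD8 T cells it was 1.12, 3.05, 0.71, 1.5 and −1.17 for these genes. Other named genes had smaller ratios in cells with Pdcd1 or Lag3 than in members. They were −0.62 against −2.54 for Hspa1b, 0.27 against 1.39 for AA467197 and 0.60 against 1.41 for Klre1. In cycling CD8 T cells the ratios of these genes were −2.15, 0.14 and 0.64, so that of Hspa1b was nearer to members there. Memory genes differed in this. Tcf7 kept its direction, with −0.72 in members, −0.14 in cells with Pdcd1 or Lag3 and −0.39 in cycling cells. Dapl1 kept it too, with −3.99, −1.65 and −1.79, while Lef1 did not, with −0.30, 0.46 and 0.09. In resting CD8 T cells with none of Gzmk, Ly6c2, Pdcd1 and Lag3, the ratio was 2.32 for Gzma, 2.35 for Ifitm1 and 2.89 for Lgals3. It was −2.31 for Hspa1b, 2.13 for AA467197, 1.13 for Klre1 and −2.70 for Dapl1 in that class. Lef1 stood there at 852 CPM with mono-IL-10 (391 cells) and 361 CPM with IL-10/2-Trikine (120 cells). The difference between classes was not tested.

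**Figure D3:**
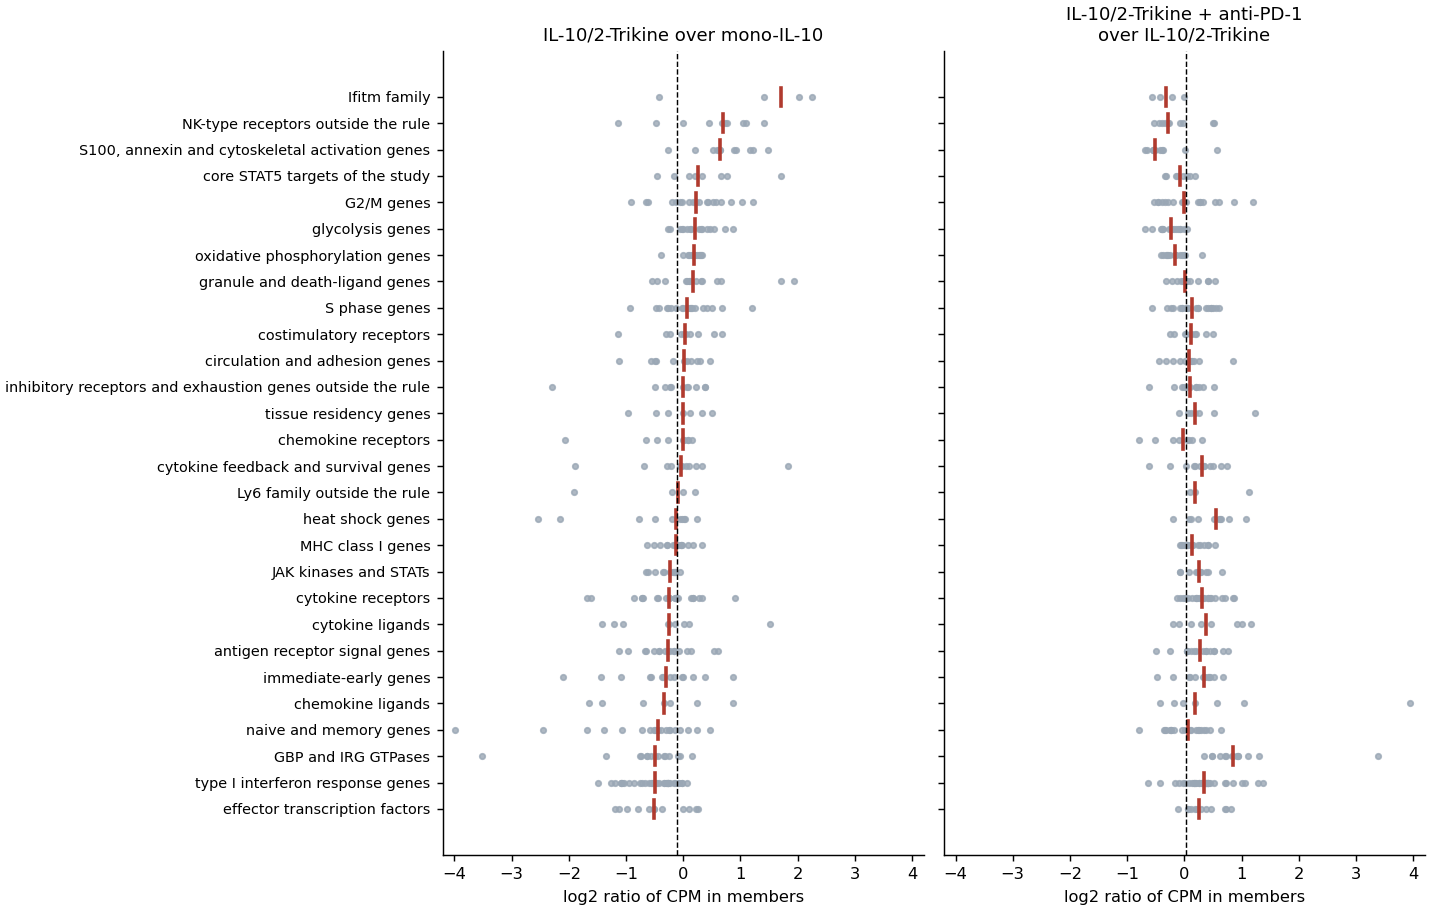
Log2 ratios of CPM in members for the genes of 28 lists (grey points, genes with at least 20 UMIs in the pair), with each list's median (red line) and the median of all genes measured (dashed), for the 2 pairs of libraries that share the IL-10/2-Trikine library. The Ifitm family (median 1.72) and NK-type receptors (0.70) lay highest in IL-10/2-Trikine over mono-IL-10, and the GBP and IRG GTPases (0.84) highest in the combination over IL-10/2-Trikine.

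The receptor genes of the 2 cytokine activities were present at low to moderate levels. Il2rb, the IL-2 receptor chain that the Trikine binds, stood at 155, 175 and 233 CPM, with log2 ratios of 0.18 (0.04 to 0.32) for IL-10/2-Trikine over mono-IL-10 and 0.41 (0.27 to 0.56) for the combination over IL-10/2-Trikine. Il2rg, the shared gamma chain, stood at 421, 356 and 425 CPM. Il2ra, the high-affinity chain induced by STAT5, stood at 21.9, 40.7 and 59.3 CPM (0.90, 0.56 to 1.23, and 0.54, 0.24 to 0.84) and was found in 1.45%, 2.26% and 5.05% of members at equal depth, below its level in free RNA of 41.7, 185 and 87.3 CPM. Il10ra, the ligand-binding IL-10 receptor chain, stood at 63.0, 34.9 and 40.8 CPM (−0.86, −1.14 to −0.57) and Il10rb at 70.4, 63.3 and 62.0 CPM (−0.15, −0.38 to 0.07). The level of Il10ra was thus lower in both Trikine libraries, as it was in free RNA (142, 59.9 and 82.9 CPM), which was above members in each. In members with a Ly6c2 UMI and none of Gzmk its log2 ratio for the combination over mono-IL-10 turned from −0.63 to 0.19. The level of Il10rb differed by less than its interval.

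Of 11 genes of JAK kinases and STATs, 0 were above 0 for IL-10/2-Trikine over mono-IL-10 (median −0.24), and 9 were above 0 for the combination over IL-10/2-Trikine (median 0.25). Stat3 stood at 343, 304 and 367 CPM, Stat5a at 45.7, 41.5 and 43.8 CPM and Stat5b at 177, 112 and 134 CPM. Of the cytokine feedback genes, Cish, a STAT5 target that limits IL-2 signaling, stood at 33.7, 39.2 and 61.3 CPM, Socs1 at 77.0, 96.9 and 123 CPM and Socs3, a STAT3 target, at 118, 96.4 and 98.8 CPM. Over the 12 genes of that list, 5 were above 0 for IL-10/2-Trikine over mono-IL-10, 1 at least 2-fold higher and 1 at least 2-fold lower (median −0.04), and 10 were above 0 for the combination over IL-10/2-Trikine (median 0.31). The study took 10 core STAT5 targets from the literature and scored them in T and NK cells of its pancreatic tumor model. For KP1 T cells it reported enrichment of an IL-2 and STAT5 gene set with IL-10/2-Trikine instead. Of the 8 targets outside the rule, 6 were above 0 here with IL-10/2-Trikine (median 0.26) and 3 with the combination over it (median −0.08). Some of them, such as Gzma and Klrd1, are also named above.

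Adding anti-PD-1 to IL-10/2-Trikine came with more RNA of interferon-induced GTPases in members, and with less of S100 and glycolysis genes. Lists of heat shock, type I interferon response, immediate-early and cytokine receptor genes were also higher, with smaller medians than the GTPases. Of 3509 genes ranked, 9 (0.256%) were at least 2-fold higher in the combination and 2 (0.057%) at least 2-fold lower. Both counts were below those for IL-10/2-Trikine over mono-IL-10 under the same filter. Without the CPM limit, 2.98% of 10229 genes were at least 2-fold higher, 1.08% at least 2-fold lower and 54.3% above 0, with a median of 0.03. The higher side was then above the 2.07% for IL-10/2-Trikine over mono-IL-10.

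Of the GBP and IRG GTPases, 14 of 14 measured genes were above 0 and 3 at least 2-fold higher (median 0.84). Iigp1, an immunity-related GTPase, stood at 18.4, 7.18 and 74.9 CPM (log2 ratio 3.38, 2.82 to 4.0) and was present in 82, 15 and 87 cells, with 96.3, 56.3 and 131 CPM in free RNA. Gbp2 stood at 141, 133 and 254 CPM (0.94), Gbp6 at 58.2, 34.3 and 74.2 CPM (1.11), Igtp at 151, 121 and 217 CPM (0.84) and Irgm1 at 72.9, 53.6 and 103 CPM (0.94). The combination was above both other libraries for these 5 genes. Gbp4 stood at 137 CPM in the combination, level with 139 CPM in mono-IL-10.

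Of 35 type I interferon response genes, 30 were above 0 and 4 at least 2-fold higher (median 0.34). Heat shock genes had a larger median (0.56, 9 of 10 above 0, 1 at least 2-fold higher). Immediate-early genes (12 of 14 above 0, median 0.35), cytokine ligands (6 of 8, 0.39) and cytokine receptors (19 of 22, 0.31) lay near the type I list. Isg15 had a log2 ratio of 0.73 (0.54 to 0.92), while Ifit3 stood at 55.8, 26.4 and 31.4 CPM (0.25, −0.14 to 0.64), lower in the combination than with mono-IL-10. Against mono-IL-10, 13 of 15 GBP and IRG GTPases were above 0 (median 0.51), and 13 of 35 type I interferon response genes (median −0.17), the second count being near the 40.5% of all genes. Ifng stood at 54.3 and 75.4 CPM with IL-10/2-Trikine and the combination (0.47, 0.22 to 0.73).

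Itgae, which encodes the CD103 integrin chain of tissue-resident T cells, stood at 37.5, 31.0 and 72.7 CPM (log2 ratio 1.23, 0.92 to 1.55), and 6 of 7 tissue residency genes were above 0 (median 0.19). Serpina3g, a protease inhibitor gene of activated T cells, stood at 45.6, 30.8 and 71.5 CPM (1.22), Phlda1 at 27.0, 29.0 and 64.7 CPM (1.16), Marchf3 at 49.2, 43.8 and 91.9 CPM (1.07) and Kansl1l at 32.0, 28.4 and 58.0 CPM (1.03). In these genes the other 2 libraries lay below the combination. Over 18 alternative settings the sign was kept, but the lowest ratio lay below 2-fold for each. It was 0.62 for Itgae, 0.21 for Serpina3g, 0.39 for Phlda1, 0.53 for Marchf3 and 0.35 for Kansl1l. Free RNA held 73.8, 59.7 and 95.6 CPM of Serpina3g, above members in each library and also highest with the combination. Jchain (5.80) and Mycl (1.11) were at least 2-fold higher too, but 3 cells held 100% and 83.0% of their UMIs in the combination. Lyn stood at 94.6, 36.4 and 72.5 CPM (0.99), with 1301, 302 and 661 CPM in free RNA.

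The lower side was small. Besides Ccl24, named above, Il1b, a myeloid cytokine gene, stood at 71.7, 171 and 70.0 CPM (log2 ratio −1.29), with 35.7% of its IL-10/2-Trikine UMIs in 3 cells and 915, 716 and 667 CPM in free RNA. S100a6 (−0.68), Lgals3 (−0.66, but 0.08 in members with no Gzmk UMI), Tpi1, an enzyme of glycolysis (86.8, 145 and 89.9 CPM, −0.69), Mrpl34 (−0.88), Pfdn4 (−0.69), Slc25a11 (−0.67) and 1500009L16Rik (−0.93) followed by less than 2-fold. Tpi1, Mrpl34 and Pfdn4 were higher in free RNA than in members in all 3 libraries. Of 12 S100, annexin and cytoskeletal activation genes 2 were above 0 (median −0.52), of 16 glycolysis genes 1 (median −0.23) and of 10 NK-type receptors 2 (median −0.28). Ccr7 stood at 70.2 and 40.6 CPM with IL-10/2-Trikine and the combination (−0.79, −1.08 to −0.51), whereas naive and memory genes as a list were near all genes (11 of 20 above 0, median 0.06). Gzma was slightly lower (−0.32, −0.34 to −0.30) and Gzmb slightly higher (0.10, 0.07 to 0.13).

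In resting CD8 T cells with Pdcd1 or Lag3 the same ratio was 1.77 for Iigp1, 0.76 for Gbp2, 1.14 for Igtp and 1.17 for Itgae, so the interferon and Itgae differences stood in this class too. Phlda1 had −0.12 and Kansl1l 0.60 there. The difference between classes was not tested.

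Between the combination and mono-IL-10, 23 of 3599 genes (0.639%) were at least 2-fold higher and 16 (0.445%) at least 2-fold lower. Crem, a repressor of cAMP-responsive genes, stood at 71.0, 148 and 209.9 CPM (log2 ratio 1.56, 1.40 to 1.73), Ikzf2, which encodes Helios, at 96.7, 146 and 255 CPM (1.40), Il2ra had 1.44 and Cdkn1a, a cell cycle inhibitor gene, stood at 26.6, 64.3 and 70.5 CPM (1.41). These 4 genes lay lowest with mono-IL-10 and highest with the combination. Free RNA had the same order for Crem (73.9, 166 and 192 CPM) and for Cdkn1a (108, 186 and 205 CPM), and that of Cdkn1a was above members in each library. Free RNA held 217, 736 and 252 CPM of Ikzf2, above members with mono-IL-10 and IL-10/2-Trikine. Ikzf2 and Il2ra belong to the 5 regulatory T cell markers, of which 5 of 5 were above 0 in this pair (median 0.87). The part of free RNA and of such cells was not tested. Gzma (1.39), Ifitm1 (2.04) and Ifitm2 (1.46) stayed above mono-IL-10. Aff3 (155, 81.0 and 59.3 CPM, −1.38), Zfp36, which encodes an RNA decay factor (208, 98.1 and 85.4 CPM, −1.28), and Rcsd1 (53.2, 41.3 and 24.2 CPM, −1.14) had the opposite order. Free RNA held 459, 289 and 283 CPM of Zfp36 and 179, 65.9 and 31.7 CPM of Aff3, with the same order as members.

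The 2 genes of the rule marked members of different kinds. Cells with Gzmk alone numbered 444, 210 and 364, with Ly6c2 alone 380, 227 and 205, and with both 914, 776 and 687. Those with both were 52.6%, 64.0% and 54.7% of members. A UMI of Ccr7 or Lef1 was present in 52.5%, 51.0% and 36.3% of the cells with Gzmk alone and in 78.7%, 63.9% and 56.6% of those with Ly6c2 alone. Cells with both lay between, at 61.4%, 59.0% and 53.9%. The groups were cut by Gzmk and Ly6c2 UMIs in the same cells, so the values that follow are a description. Of 3291 genes ranked, 7 (0.213%) were at least 2-fold higher and 7 (0.213%) at least 2-fold lower in Gzmk-only cells in all 3 libraries, and at any size 28.8% were higher and 15.4% lower in all 3.

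Cells with Gzmk alone held more granzyme RNA. Gzma stood at 3802, 11003 and 7708 CPM in Gzmk-only cells and at 712, 2439 and 2854 CPM in Ly6c2-only cells, log2 ratios of 2.42, 2.17 and 1.43, and 9 of 11 granule genes were higher in all 3 libraries. Gzma and Esm1 (log2 ratios 2.87, 1.27 and 2.13) are the nearest protein-coding neighbours of Gzmk on chromosome 13 in the RefSeq annotation of GRCm38.p6, 1 on either side. Itga1, which encodes the CD49a chain of tissue-resident T cells, stood at 120.4, 157 and 214 CPM against 24.5, 58.8 and 64.2 CPM. Ifitm1 (1.77, 1.59 and 1.05), Ccl3 (1.48, 1.56 and 1.52), Cd7 and Abi3 were the others past 2-fold. Havcr2, which encodes TIM-3 and is no gene past 2-fold in all 3, stood at 69.9, 60.3 and 64.9 CPM against 11.9, 23.2 and 43.3 CPM.

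Cells with Ly6c2 alone held more memory RNA. Ccr7 stood at 214, 214 and 122 CPM in Ly6c2-only cells and at 33.5, 77.8 and 12.1 CPM in Gzmk-only cells (log2 ratios −2.68, −1.46 and −3.34). Of 16 naive and memory genes, 11 were lower in Gzmk-only cells in all 3 libraries, Tcf7 among them (−1.69, −0.94 and −1.03). Plaur, Cmah, Tespa1, Parp8 and Aff3 were at least 2-fold lower too. The difference in granzyme RNA and lymph node homing RNA between these parts was thus present in each of the 3 libraries. The fold for Gzma was smallest in the combination. Cells with both genes were not part of this comparison.

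**Figure D4:**
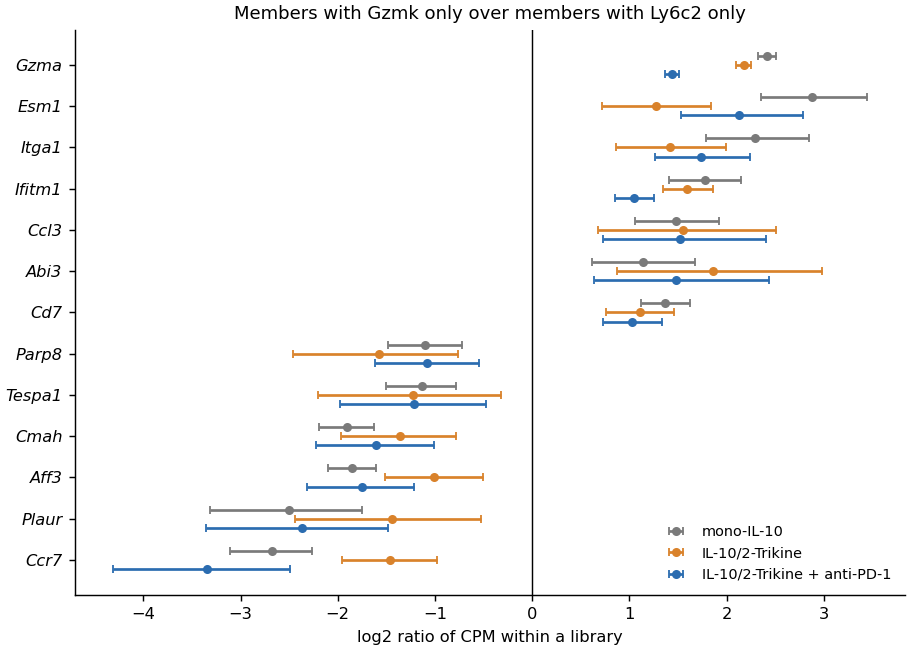
Log2 ratio of CPM, members with Gzmk alone over members with Ly6c2 alone, within each library, for genes at least 2-fold apart the same way in all 3 libraries, with 95% counting intervals. Gzma, Esm1 and Itga1 lay to the right and Ccr7 to the left in all 3 libraries.

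Set beside the other resting CD8 T cells, the members lay between 2 classes in the levels of Gzma, Gzmb and Tcf7, in each library. Not every gene did so: Xcl1 was at least 2-fold lower in members than in both classes in all 3 libraries. Resting CD8 T cells with a Pdcd1 or Lag3 UMI (1624, 1443 and 2200 cells) were deeper, with median UMIs of 4738, 3781 and 3523, and those with none of Gzmk, Ly6c2, Pdcd1 and Lag3 (391, 120 and 186 cells) shallower, with 3249, 2200.5 and 2051.5. The classes were cut by UMIs of the same cells, so these comparisons too are a description. Of 3273 genes ranked against the Pdcd1 or Lag3 class, 0 (0%) were at least 2-fold higher in members in all 3 libraries and 7 (0.214%) at least 2-fold lower, and at any size 34.2% were higher and 32.3% lower in all 3.

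The 7 lower genes were Tnfrsf9, Areg, Rgs16, Havcr2, Ikzf2, Xcl1 and Snx9. Tnfrsf9, which encodes the costimulatory receptor 4-1BB, stood at 42.8, 62.0 and 52.0 CPM in members against 228, 175 and 179 CPM in cells with Pdcd1 or Lag3 (log2 ratios −2.42, −1.5 and −1.78). Havcr2 stood at 49.4, 51.8 and 50.3 CPM against 208, 120 and 140 CPM, and the chemokine gene Xcl1 at 56.4, 47.9 and 71.5 CPM against 424, 139 and 153 CPM. Of 15 naive and memory genes, 13 were higher in members in all 3 libraries (medians 1.05, 0.45 and 0.87), among them Tcf7 (1.38, 0.80 and 1.23), the IL-7 receptor gene Il7r (1.05, 0.69 and 0.88) and Klf2 (1.20, 0.47 and 1.06). In all 3 libraries, 14 of 14 oxidative phosphorylation genes and 10 of 12 glycolysis genes were lower in members. Gzmb stood at 2742, 4309 and 4628 CPM against 6134, 6667 and 7318 CPM, and Prf1 at 225, 281 and 259 CPM against 610, 472 and 490 CPM. Of 11 granule and death-ligand genes, 7 were lower in members in all 3 libraries and 3 higher. The members thus had less Gzmb and Prf1 and more of the memory genes than cells with Pdcd1 or Lag3, and for Gzmb the gap was larger with mono-IL-10 (log2 ratio −1.16) than in the other libraries (−0.63 and −0.66), a difference that was not tested.

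Against cells with none of the 4 genes, 5 of 3322 genes (0.151%) were at least 2-fold higher in members in all 3 libraries and 6 (0.181%) at least 2-fold lower. Gzma stood at 2660.0, 8686 and 6964 CPM in members against 363, 1812 and 3000.5 CPM (log2 ratios 2.87, 2.26 and 1.21) and Gzmb at 494, 1692 and 2173 CPM in the other class (2.47, 1.35 and 1.09). Wdr95 stood at 74.6, 87.9 and 69.7 CPM against 18.5, 3.25 and 7.26 CPM, and Esm1 and Nrarp completed the 5. The lower genes were Xcl1 (−1.81, −2.75 and −2.06), Ccr7 (−1.99, −1.76 and −1.74), Id3, Rflnb, Aff3 and Zbtb20. Ccr7 and Id3 are genes of naive and memory T cells.

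**Figure D5:**
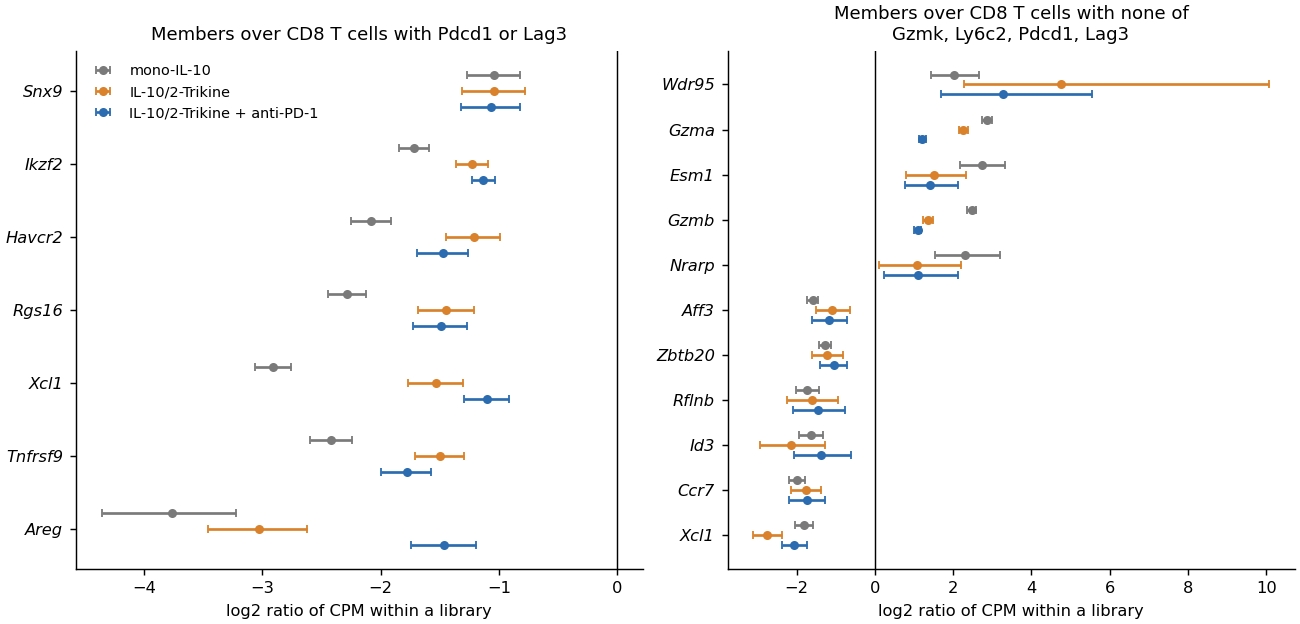
Log2 ratio of CPM, members over resting CD8 T cells with Pdcd1 or Lag3 (left) and over resting CD8 T cells with none of the 4 genes (right), within each library, for the genes at least 2-fold apart the same way in all 3 libraries, with 95% counting intervals. All 7 genes on the left were lower in members, and on the right 5 were higher and 6 lower.

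At the edge of the rule, members with 1 UMI of Gzmk and Ly6c2 together (208, 118 and 161 cells) held 10020.4, 16395 and 19152 CPM of Ccl5, and cells with 0 such UMIs that pass all other steps held 3309.9, 9445 and 9747 CPM. Lef1 stood at 639.6, 397 and 285 CPM just inside and at 852, 361 and 309.7 CPM just outside, so its order between the sides was not the same in the 3 libraries.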

How the data were processed

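The deposited matrices hold raw UMI counts, which the authors produced with Cell Ranger from 10x Genomics 3' libraries and neither filtered nor normalized. The file headers name version 8.0.0, the methods another. Genome builds named in the labels and methods differ, so no coordinates are given. Members were gated by raw UMIs, and their counts were summed per library and scaled to CPM. The members, gene lists and comparisons were chosen with earlier results of these data known. With 1 library per group no test was run. CPM carry exact Poisson intervals, CPM ratios exact conditional binomial intervals, shares Clopper-Pearson intervals and share ratios log intervals. Named genes were the 10 highest and 10 lowest log2 ratios of each pair (at least 20 UMIs in the pair, 50 CPM in the higher library), genes 2-fold apart in all 3 libraries within a library, up to 4 genes per list and the cytokine receptors. Any other named gene was chosen after its values were seen. B cells were cells with at least 2 UMIs of Cd79a and Ms4a1 and none of the T cell and myeloid genes of the rule. Left out were mitochondrial, ribosomal, V(D)J, immunoglobulin constant, hemoglobin, Xist and Y-linked genes. Thinning drew UMIs without replacement and left out shallower cells (9, 20 and 29 members at 1000 UMIs). Software was Python 3.11.15, numpy 2.4.6, scipy 1.17.1, pandas 2.3.3, matplotlib 3.10.9, and R 4.3.3 with edgeR 4.0.16 for scaling factors. Alternatives were other gates, depths, filters, scalings and parts of the members. Some genes are not reported here.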

Additional observations from a re-analysis of the deposited data

Results flagged for a closer look

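For 5 genes the ratio between libraries went at least 2-fold opposite ways in members and in another class, or in 2 parts of the members. The screen took the 3596 and 3509 genes ranked in the 2 pairs, where the other class or part held at least 20 UMIs. The 5 genes are thus few among the comparisons made. None of these differences was tested, and each group is 1 library. For IL-10/2-Trikine over mono-IL-10, Nr4a3 had a log2 ratio of −1.16 in members with Gzmk alone and 1.09 in members with Ly6c2 alone (141 and 130 UMIs). For the combination over IL-10/2-Trikine, Fcer1g had −1.65 in members with Gzmk alone and 1.71 in those with Ly6c2 alone (173 and 145 UMIs), and Fabp5 had −1.53 and 1.13 (78 and 98 UMIs). Mycl had 1.11 in members and −3.71 in resting CD8 T cells with none of the 4 genes (383 and 43 UMIs), and 3 cells held 83.0% of its combination UMIs. Ccl24 had −6.07 in members and 2.03 in cycling CD8 T cells (266 and 31 UMIs), with 98.9% of its IL-10/2-Trikine UMIs in members in 3 cells.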

How the results depend on the processing

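No paired analysis was possible because each group is 1 library, and leaving out a library would leave a group empty. Several alternatives were chosen after seeing the data: also taking cells with Lag3 or Pdcd1, leaving out cells with 2 or more B cell UMIs, leaving out 3 cells per gene and library, and leaving out members above the 95th percentile of member depth. Leaving out cells above the 95th percentile of all kept cells removed 0 members. The cause of each shift was not tested.

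The share ratio for IL-10/2-Trikine over mono-IL-10 (0.944) turned to 1.05 with Ly6c2 required, 1.05 without members that had Ccr7 or Lef1, 1.07 with Lag3 or Pdcd1 cells also taken and 1.13 at 1000 UMIs, and was 0.999 at 2000. The ratio for the combination over IL-10/2-Trikine (0.789) was 0.678, 0.967 and 0.969 under the first 3 of these, and below 1 in every alternative run with resting CD8 T cells as the denominator, but 1.004 of T cells and 1.03 of CD8 T cells with cycling cells included. For the combination over mono-IL-10 (0.745) it turned to 1.02 and 1.04 under the second and the third.

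Counts of genes at least 2-fold apart moved with the filter. Higher and lower, they were 222 and 553 (IL-10/2-Trikine over mono-IL-10) and 305 and 110 (combination over IL-10/2-Trikine) without the CPM limit. These were 2.07% and 5.15% of 10745 genes, and 2.98% and 1.08% of 10229 genes. With the limit, 3596 and 3509 genes were ranked. From 1 UMI the counts were 961 and 1187, and 1058 and 835. In Ly6c2-only members they were 78 and 130, and 71 and 20. How many genes were compared from 1 UMI and in Ly6c2-only members is not given here, so those counts cannot be read as shares. With Lag3 or Pdcd1 cells taken the 23 became 14. The 2 lower genes of the combination became 7 with Gzmk required, 5 without myeloid UMIs, 1 without Mki67 or Top2a, 4 without Ccr7 or Lef1 and 6 with Lag3 or Pdcd1 taken.

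Within libraries, the 5 higher and 6 lower against cells with none of the 4 genes became 0 and 1 with Ly6c2 required, 3 higher with at least 2 UMIs of the pair, 9 higher without Mki67 or Top2a, 10 lower without Ccr7 or Lef1, 10 and 13 with Lag3 or Pdcd1 taken, and 8 and 11 without the deepest members. Against Pdcd1 or Lag3 cells the last gave 1 higher and 13 lower. Gzmk-only over Ly6c2-only gave 11 and 11 with at least 2 UMIs, 3 and 4 without Ccr7 or Lef1, and 17 and 14 with Lag3 or Pdcd1 taken.

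List medians of at least 0.3 in size changed sign in 11 cases, and of all others 1215 moved by less than 0.1 and 276 by more. TMM and median-of-ratios scaling turned medians near 0, such as that of tissue residency genes for IL-10/2-Trikine over mono-IL-10 (0.074 and 0.073). Chemokine ligands gave 0.031 (Ly6c2 required) and 0.084 (Cd8b1 required) for IL-10/2-Trikine over mono-IL-10, and for the combination over mono-IL-10 −0.64 (Gzmk required), −1.06 (no myeloid UMI), −0.96 (no Ccr7 or Lef1) and −1.12 (no deepest members). In Ly6c2-only members, effector transcription factors (0.28) and GBP and IRG GTPases (0.059) turned above 0 for IL-10/2-Trikine over mono-IL-10, as did the Ifitm family (0.34) and Il1b (0.24) for the combination over IL-10/2-Trikine and chemokine receptors (0.24) for it over mono-IL-10.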

Other observations

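T cell receptor variable genes were seen in few members. A Trbv UMI was detected in 347 of 1738 members with mono-IL-10 (19.97%), 218 of 1213 with IL-10/2-Trikine (18.0%) and 188 of 1256 with the combination (15.0%). Each such cell was assigned to the Trbv gene with the most UMIs, and ties went to the first gene in file order. Trbv13-1 was the assigned gene in 61 of the 347 (17.6%, 13.7 to 22), 15 of the 218 (6.88%, 3.90 to 11.1) and 16 of the 188 (8.51%, 4.94 to 13.5). In resting CD8 T cells with Pdcd1 or Lag3 the counts were 109 of 478 (22.8%), 16 of 343 (4.66%) and 39 of 459 (8.50%), so the mono-IL-10 library was the high library in both classes. Trbv19 was the assigned gene in 82 of 459 (17.9%) of the Pdcd1 or Lag3 class of the combination and in 13 of 188 (6.91%) of its members. These genes were named after their values were seen.

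The members' depth, which sets which cells show a UMI, was 3664, 2876 and 2871 median UMIs, and the share of ribosomal protein UMIs was 14.5%, 16.1% and 14.7%.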
